A study of Mus musculus with 20 samples.

Results

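Maternal pronuclei of mouse zygotes that lacked the oocyte store of Tet3 were compared with WT maternal pronuclei after DNA replication had been blocked. The comparison held 4 of the 20 libraries of the series, chosen by their labels: CKO maternal aphidicolin replicates 1 and 2 against WT maternal aphidicolin replicates 1 and 2. The assay was RRBS, reduced representation bisulfite sequencing, in which MspI digestion selects fragments rich in CpGs. CKO zygotes came from Zp3-Cre, f/- females, in which Cre is driven by a promoter of growing oocytes, and WT zygotes came from f/f females. Females of both genotypes were 7 to 10 weeks old and superovulated, and their oocytes were fertilised in vitro with C57BL/6J sperm. All zygotes of the 4 libraries were moved at 5 hours after fertilisation into aphidicolin at 3 µg/ml, which stops replicative DNA polymerases, and pronuclei were taken at 12 hours and frozen at 13 hours. The parental pronuclei were told apart under the microscope by their size and their distance from the second polar body. Per the labels, about 20 pronuclei and 21 PCR cycles were typical of a library, so each pools several zygotes. The labels do not say that replicates came from separate matings, so p-values measure only the spread between these libraries, which may be technical. Further libraries served for reference: the mock-treated maternal pronuclei of both genotypes (2 libraries each), the paternal pronuclei of both genotypes with aphidicolin (2 libraries each) and the gametes (2 libraries each of oocytes and sperm).

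Tet3 is the dioxygenase of the oocyte and zygote that oxidises 5-methylcytosine to 5-hydroxymethylcytosine and beyond. It is best known for acting on the paternal genome, while Dppa3, a maternal factor also called Stella, shields the maternal genome from it. Methylated CpGs of the maternal genome are also diluted when replication makes new strands that are not fully methylated. Without replication, that dilution is taken away, so the comparison asks what Tet3 does to the maternal genome in its absence. Bisulfite sequencing reads 5-methylcytosine and 5-hydroxymethylcytosine alike, so only a loss of both would lower a level.

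The 4 libraries held 45229988 and 39786407 CpG calls in CKO and 48737174 and 29753335 in WT. A total of 299124 autosomal positions had 5 or more reads in each of them, with a median depth of 40 and 37 reads in CKO and 45 and 28 reads in WT. These positions formed 65027 tiles of 100 bp and 51723 tiles of 1000 bp with at least 2 positions. Calls on mitochondrial DNA, which is taken to be unmethylated, were methylated in 0.176% and 0.190% of cases in CKO and in 0.169% and 0.155% in WT.

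CKO replicate 1 stood apart from the other 3 libraries. Its 12266 sperm-specific tiles (75% or more in sperm and 25% or less in oocytes) averaged 9.30%, while the other CKO library had 5.57% and the WT libraries had 4.92% and 5.09%. Its 1216 oocyte-specific tiles (75% or more in oocytes and 25% or less in sperm) averaged 85.5%, while the other CKO library had 91.7% and the WT libraries had 91.3% and 92.5%. It also held the highest share of calls on chromosome Y, which only sperm bring: 0.00163% (738 calls), against 9.30e-05% in the other CKO library and 6.77e-05% and 0.000508% in WT. Paternal pronuclei with aphidicolin had 0.00597% and 0.0127% of calls on chromosome Y in CKO and 0.0158% and 0.0219% in WT. Their sperm-specific tiles averaged 88.6% and 95.3% in CKO and 91.2% and 92.8% in WT. The part of paternal DNA in the values of CKO replicate 1 was not tested. The main differences in level are therefore given with and without this library. For the comparisons with mock by tile class, values without it were not computed.

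Over all positions, mean methylation of the maternal genome differed little between the genotypes. It was 16.0% and 15.5% in the CKO libraries, against 15.3% and 15.4% in the WT libraries. The group means were 15.7% ± 0.397 for CKO and 15.3% ± 0.0852 for WT (SD, n = 2 per genotype). CKO thus exceeded WT by 0.396 points, and the 4 differences between single libraries ran from 0.0554 to 0.737 points. Both CKO libraries lay above both WT libraries, which gives an exact two-sided permutation p of 0.333, the smallest that 2 against 2 libraries allow. Without CKO replicate 1 the difference was 0.116 points. When each position counted by its reads, the means were 18.0% and 19.2% in CKO, against 16.8% and 17.9% in WT, a difference of 1.24 points that was 1.85 points without CKO replicate 1 and 0.630 points without CKO replicate 2. With 1000-bp tiles weighted equally it was 0.651 points. The size of the difference, and which CKO library carried it, thus depended on the weights. On chromosome X, 6939 positions averaged 17.4% and 17.9% in CKO, against 17.5% and 17.3% in WT, and there the groups overlapped.

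Tiles methylated in both gametes, where the oocyte had laid down nearly full methylation, stayed near the oocyte level in both genotypes. The 6286 such tiles averaged 94.2% and 95.0% in CKO, against 94.8% and 94.8% in WT. Oocytes themselves averaged 96.2% and 96.3% in these tiles. The difference of CKO from WT was -0.235 points (range of the 4 single differences -0.636 to 0.166, exact permutation p = 1), and without CKO replicate 1 it turned to 0.154 points. The CKO libraries lay on either side of the WT pair, so no direction could be given.

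Oocyte-specific tiles, which include the germline differentially methylated regions of maternally methylated imprinted genes, averaged 88.6% ± 4.35 in CKO libraries and 91.9% ± 0.8999 in WT libraries (SD, n = 2 per genotype). The difference of -3.30 points (exact permutation p = 0.667) came to -0.222 points without CKO replicate 1. Sperm-specific tiles, unmethylated in the egg, averaged 7.43% ± 2.64 in CKO and 5.01% ± 0.121 in WT. Here both CKO libraries lay above both WT libraries, by 2.42 points on average and by 0.558 points without CKO replicate 1 (exact permutation p = 0.333). In this library 276 of the 12266 sperm-specific tiles (2.25%) were at 75% or more, against 145 (1.18%) in CKO replicate 2 and 137 (1.12%) and 119 (0.970%) in WT. The 34333 tiles unmethylated in both gametes averaged 1.43% and 1.36% in CKO, against 1.28% and 1.38% in WT, and the groups overlapped.

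Tiles were next sorted by their oocyte level. At 0% to 5% in oocytes (42721 tiles) the maternal genome had 2.49% and 1.48% in CKO, against 1.28% and 1.44% in WT. The difference was 0.627 points, and 0.123 points without CKO replicate 1. At 5% to 15% (4840 tiles) it had 9.53% and 7.49% in CKO, against 7.22% and 6.93% in WT, a difference of 1.43 points that was 0.414 points without CKO replicate 1. Both CKO libraries lay above both WT libraries in these bins. The bins also hold sperm-specific tiles, so they are not a separate result, and the share of the difference due to those tiles was not computed. Tiles unmethylated in both gametes differed by 0.0642 points, with overlapping groups. At 50% to 75% in oocytes (1331 tiles) it had 57.2% and 58.3% in CKO, against 60.04% and 59.7% in WT. At 50% to 75% the difference was -2.09 points, and it was -1.54 points without CKO replicate 1 and -2.63 points without CKO replicate 2. Each CKO library lay below both WT libraries in that bin. The same held at 25% to 50% (1937 tiles, -0.481 points) and at 75% to 85% (644 tiles, -2.10 points). The nearest CKO and WT libraries differed by -0.00709 points at 25% to 50%, -1.37 at 50% to 75% and -0.106 at 75% to 85%. The exact permutation p was 0.333 in each bin where the groups separated, the smallest that 2 against 2 libraries allow. At 15% to 25% (1451 tiles) and at 85% to 95% (1509 tiles) the groups overlapped. At 25% to 50% the difference was -0.155 points without WT replicate 1 and -0.807 points without WT replicate 2. In the bin of 75% to 85% it was -0.534 points without CKO replicate 1. At 95% or more in oocytes (5873 tiles) the levels were 95.3% and 96.8% in CKO, against 96.6% and 96.6% in WT, and the groups overlapped.

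The classes were also compared on each autosome. In sperm-specific tiles, CKO replicate 1 lay above both WT libraries on 19 of 19 autosomes, and CKO replicate 2 did so on 11, lying below both on 3. In oocyte-specific tiles, CKO replicate 1 lay below both WT libraries on 17 autosomes, while CKO replicate 2 lay below both on 4, above both on 6 and between them on 9. In tiles methylated in both gametes, CKO replicate 1 was below both WT libraries on 11 autosomes and above both on 3, and CKO replicate 2 below both on 5 and above both on 7. The CKO mean in these tiles ran from 1.84 points below the WT mean to 1.23 points above it across autosomes.

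**Figure D1:**
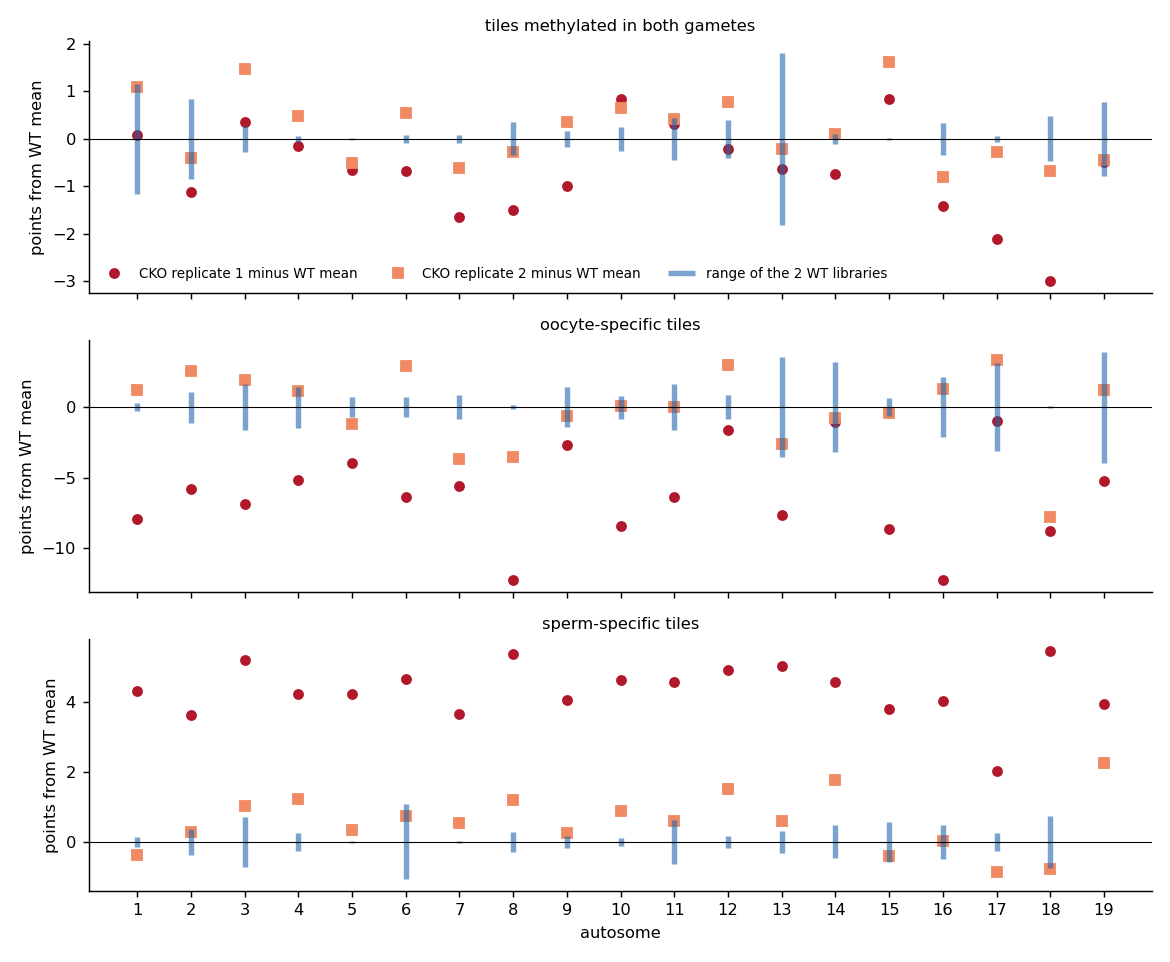
Difference of each CKO library from the mean of the 2 WT libraries (percentage points, vertical axis) on each autosome (horizontal axis), for 3 classes of 100-bp tiles; circles are CKO replicate 1, squares CKO replicate 2, and blue bars span the 2 WT libraries. CKO replicate 1 sits above WT on 19 of 19 autosomes in sperm-specific tiles and below both WT libraries on 17 in oocyte-specific tiles, while CKO replicate 2 sits above both WT libraries on 11 and below both on 3 in sperm-specific tiles, and above both on 6 and below both on 4 in oocyte-specific tiles.

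Mock-treated maternal pronuclei show what the same genotypes did when replication went on. In the 5045 tiles methylated in both gametes and read in all 8 libraries, CKO had 94.1% and 94.9% with aphidicolin and 80.5% and 82.5% in mock, and WT had 94.9% and 94.7% with aphidicolin and 79.7% and 82.5% in mock. The level with aphidicolin was thus 13.0 points above mock in CKO and 13.7 points above mock in WT, and every aphidicolin library lay above every mock library. Sperm-specific tiles (10419) had 9.26% and 5.45% in CKO against 4.85% and 5.02% in WT with aphidicolin, and 8.89% and 10.2% in CKO against 3.43% and 3.75% in WT in mock. The CKO minus WT difference in these tiles was 2.42 points with aphidicolin and 5.97 points in mock. Within each treatment both CKO libraries lay above both WT libraries, and permuting genotypes within treatment gave an exact p of 0.0556, the smallest that its 36 arrangements allow. The same exact permutation gave 0.0556 for all positions, 0.111 for oocyte-specific tiles, 0.111 for tiles unmethylated in both gametes and 0.889 for tiles methylated in both. Adjusted over these 5 tests by Benjamini-Hochberg, the smallest exact p was 0.139. CKO mock libraries had 0.00297% and 0.000296% of calls on chromosome Y, against 0.000692% and 0.000198% in WT mock. The part of paternal DNA in these class differences was not tested.

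Whether the Tet3 difference itself changed with treatment was tested at the 242943 positions read in all 8 libraries. Mean methylation was 15.4% and 14.8% in CKO and 14.6% and 14.8% in WT with aphidicolin, and 13.3% and 14.3% in CKO and 11.9% and 12.5% in WT in mock. CKO exceeded WT by 0.436 points with aphidicolin and by 1.64 points in mock, a difference of differences of -1.20 points (exact two-sided permutation p = 0.389). In tiles methylated in both gametes the difference of differences was -0.721 points (p = 0.500, the same exact permutation), in oocyte-specific tiles 0.732 points (p = 0.778) in sperm-specific tiles -3.55 points (p = 0.333) and in tiles unmethylated in both gametes -0.543 points (p = 0.278). Over these 5 relations the smallest Benjamini-Hochberg adjusted p was 0.625 (exact permutation). The smallest p that the 36 arrangements allow is 0.0556, so no relation could have passed 0.05 in this design. Nothing in the labels tells whether aphidicolin and mock libraries were made together, so batch and treatment cannot be told apart.

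**Figure D2:**
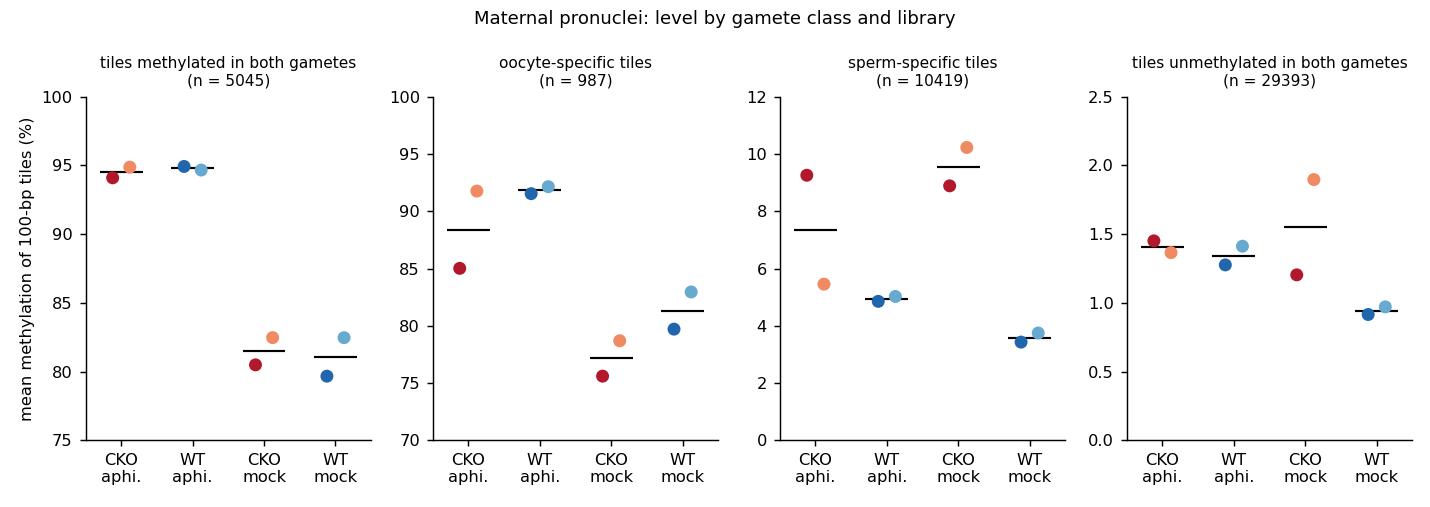
Mean methylation (%, vertical axis) of 100-bp tiles read in all 8 maternal libraries, in 4 panels by gamete class, with n the number of tiles; each point is a library (replicate 1 left, replicate 2 right) and each line a group mean, and the vertical range differs between panels. Aphidicolin libraries stand 13.0 (CKO) and 13.7 (WT) points above mock in tiles methylated in both gametes, and CKO replicate 1 with aphidicolin stands apart from CKO replicate 2 in oocyte-specific and sperm-specific tiles.

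Tile by tile, no locus passed the test in either direction. The quasi-binomial model with Benjamini-Hochberg adjustment called 0 of 65027 100-bp tiles and 0 of 51723 1000-bp tiles (percent called 0 in each) where a call needed 10 points of difference besides an adjusted p below 0.05. At an unadjusted p under 0.05 there were 259 tiles of 100 bp (0.398%) and 318 of 1000 bp (0.615%). limma on arcsine square roots, as another tool, called 0 tiles of 100 bp and 12 higher and 7 lower tiles of 1000 bp. In the simulated data limma called 1385 of 64827 unchanged tiles of 100 bp and 0 of 51523 unchanged tiles of 1000 bp. In the simulated 100-bp tiles the quasi-binomial model had little power. It called 3 of 67 tiles changed by 40 points and 0 of 66 changed by 60 points, out of 65027 tiles. These rates belong to the simulated counts and may not hold for the data. The median dispersion was 78.9 times the binomial variance, and the median tile had 133.8 calls per library. Calls divided by dispersion came to a median of 1.65. Only 18502 of the 65027 tiles had a dispersion of their own. The others took the value of the trend on depth, so these medians are mostly not a measured spread.

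Single tiles often read near 0% or 100%. In 1301 tiles of 3 or more positions that were at 25% to 75% in oocytes, 35.4% and 36.2% of tiles in the CKO libraries, and 41.1% and 37.0% in the WT libraries, read either at most 5% or at least 95%. The tiles were chosen by their oocyte level, so oocytes give no comparison here. Tiles 25 points or more apart made up 6.90% of 36926 tiles between the CKO replicates and 5.87% between the WT replicates. Between a CKO and a WT library they made up from 5.93% to 7.06%, a range that holds the CKO replicate pair.

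Both CKO libraries lay above both WT libraries in 1162 of 36926 tiles with at least 3 positions and 20 calls (percent called 3.15) and below both in 951 (percent called 2.58). By 25 points or more they lay above in 162 tiles (percent called 0.439) and below in 138 (percent called 0.374). Among 3949 sperm-specific tiles, both lay above both WT libraries in 7.12% and below in 3.42%. Among 704 oocyte-specific tiles the shares were 5.54% above and 8.52% below, and among 2240 tiles methylated in both gametes 3.66% above and 4.96% below. The median difference was 0 in each of these classes. Taken alone, CKO replicate 2 lay above both WT libraries in 775 sperm-specific tiles and below both in 211, and CKO replicate 1 above in 1018 and below in 198. In 24869 tiles unmethylated in both gametes, CKO replicate 2 lay above both WT libraries in 2548 and below both in 477. For CKO replicate 1 the counts there were 2837 and 482. Over all 36926 tiles, CKO replicate 2 lay above both WT libraries in 4291 and below both in 1765. CKO replicate 1 did so in 4897 and 1869. WT means in the unmethylated class, 1.28% and 1.38% over its 34333 tiles, left little room for a value below both.

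The tiles farthest apart with aphidicolin were looked up in the mock libraries, which had no part in choosing them. Of the 162 tiles higher in CKO, 135 were also read in mock. They averaged 64.4% in CKO and 11.5% in WT with aphidicolin, and 26.97% in CKO and 21.5% in WT in mock. In mock, both CKO libraries lay above both WT libraries in 28 of the 135 tiles (20.7%) and below both in 14 (10.4%), where all 30766 tiles read gave percent called values of 6.81 above and 4.06 below. Of the 138 tiles lower in CKO, 103 were read in mock and averaged 17.3% in CKO and 73.5% in WT with aphidicolin, and 37.9% in CKO and 34.4% in WT in mock. In mock, both CKO libraries lay below both WT libraries in 17 of them (16.5%) and above both in 21 (20.4%). Among tiles with an oocyte level, the oocyte mean was 32.4% for the higher set, 43.3% for the lower set and 11.5% for all tiles. The sets thus differed in level from all tiles, so the shares over all tiles are not a matched background.

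The 10 tiles with the widest gap in each direction give an idea of these loci. At chr4:7939601-7939700 (mm9) both CKO libraries read 100% and both WT libraries 0%, with oocytes at 98.5% and mock at 0% and 62.2% in CKO and 71.1% and 61.7% in WT. The tile at chr2:171326101-171326200 was the mirror image, with 0% in both CKO and 100% in both WT libraries, oocytes at 52.6%, and mock at 18.6% and 63.7% in CKO and 78.6% and 0% in WT. Gaps ran from 65.0 to 100 points in the 10 tiles higher in CKO and from 74.5 to 100 points in the 10 lower ones. The adjusted p was 1 in each, and the values are given as a description, since the gap chose the tiles. In oocytes, 5 of the 10 higher tiles and 6 of the 8 lower tiles with an oocyte level were partly methylated (25% to 75%). Of these tiles, 2 lay within 1 kb of a placed promoter start: chr6:55401901-55402000, which is 0.022 kb from that of Adcyap1r1, and chr10:120335601-120335700, which is 0.377 kb from that of Msrb3, a methionine sulfoxide reductase. Only 7657 of 32851 promoters could be placed, so other tiles may lie near starts that were not placed.

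A few tiles were far deeper than the rest. Tiles above 10 times the median depth of 133.8 calls numbered 89. In 47 of them (52.8%) both CKO libraries lay above both WT libraries and in 5 (5.62%) below both. For tiles of at most 10 times the median depth at 5% to 50% in oocytes these shares were 10.2% and 8.30% of 3302. At 2 to 10 times the median depth they were 14.9% and 10.4% of 579. Those tiles also needed 3 positions and 20 calls, and the 89 were not limited in these ways. Of the 47 tiles, 30 lay in a single stretch, described next. Outside it, 25 deep tiles were at 5% to 50% in oocytes, with 13 above (52%) and 1 below (4%). The rule for the 89 deep tiles used depth alone, but neighbouring deep tiles lie side by side and are not independent.

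Of the 89 deep tiles, 43 formed a single stretch on chromosome 17, from 39979901 to 39985800 (mm9). It had a median of 23200.2 calls per tile and library and from 2.74% to 3.39% of all autosomal calls in the 4 libraries. The share was of like size in the gametes, 3.30% and 3.27% in oocytes and 2.95% and 2.92% in sperm. Whether reads this deep came from a single locus or from repeated copies read at the same place was not tested. The values may therefore not be those of a chromosome 17 locus alone. Pooled over the stretch, methylation was 11.8% and 15.3% in CKO, against 9.58% and 8.41% in WT. Both CKO libraries lay above both WT libraries in 30 of the 43 tiles and below both in 0. Averaged over tiles, the difference was 4.19 points, with single differences from 2.08 to 6.29 points (exact permutation p = 0.333, the smallest possible). It was 6.10 points without CKO replicate 1 and 2.28 points without CKO replicate 2. In oocytes the stretch read 18.95% and 17.5%, so the levels with aphidicolin were below oocytes in both genotypes. Mock libraries read 9.43% and 13.5% in CKO, against 14.7% and 12.6% in WT, and there the groups overlapped. Sperm read 12.8% and 18.6%, and paternal pronuclei with aphidicolin 20.6% and 15.2% in CKO and 20.2% and 13.7% in WT. The smallest unadjusted p in these 43 tiles was 0.000111 and the adjusted p was 1 in each under the quasi-binomial model.

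**Figure D3:**
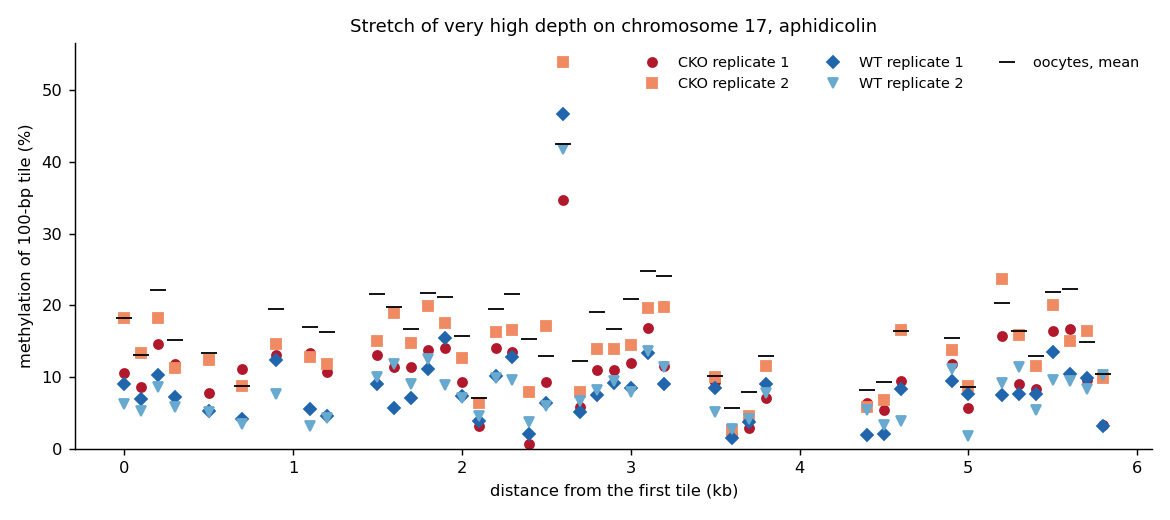
Methylation (%, vertical axis) of the 43 deep 100-bp tiles against their distance from the first tile (kb, horizontal axis) on chromosome 17; reds are the CKO libraries, blues the WT libraries and black dashes the oocyte mean. Both CKO libraries lie above both WT libraries in 30 tiles and below both in 0, and the oocyte dashes lie above 42 and 35 tiles of the CKO libraries and 42 and 43 tiles of the WT libraries.

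The other 46 deep tiles averaged 25.1% and 26.3% in CKO, against 23.2% and 24.4% in WT. Both CKO libraries lay above both WT libraries in 17 of them and below both in 5. In mock they averaged 22.6% and 23.6% in CKO, against 21.9% and 21.4% in WT. For the 25 of these at 5% to 50% in oocytes, the means were 15.4% and 17.2% in CKO, against 13.9% and 12.7% in WT, and in mock 14.2% and 15.9% in CKO, against 13.3% and 12.9% in WT. In both sets and both treatments, both CKO libraries lay above both WT libraries. The 10 above 50% in oocytes had 71.9% and 73.3% in CKO, against 69.2% and 74.4% in WT, and the groups overlapped.

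Genes were named by fitting RefSeq promoter sequences (build GRCm38.p6, 250 bases before to 50 after a gene's start) to the mm9 positions by the spacing of their CpGs. The RefSeq set held 32851 promoters, of which 7657 could be placed, and 4429 of these had at least 2 positions with 5 or more reads in each of the 4 libraries. The quasi-binomial model called 0 of 4429 windows (percent called 0), and 14 had an unadjusted p under 0.05. Of the 3903 autosomal windows unmethylated in both gametes, 3616 read 10% or less in all 4 libraries, and their means were 0.877% and 0.773% in CKO, against 0.712% and 0.796% in WT.

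Promoters methylated in oocytes and not in sperm are the maternal genome's own signature, and 68 windows of 60 genes met that rule from the gametes alone. Over the 65 autosomal windows the means were 88.4% and 95.4% in CKO, against 93.6% and 93.5% in WT. The difference was -1.64 points (exact permutation p = 1) and turned to 1.88 points without CKO replicate 1. With a window per gene, 26 of the 60 genes read 95% or more in all 4 libraries. Among these were Kdm2b, a histone demethylase that binds CpG islands (100% and 99.8% in CKO, against 98.4% and 100% in WT, at positions it shares with the promoter of A930024E05Rik), and Pabpc4, a poly(A)-binding protein (99.7% and 100% in CKO, against 100% and 95.4% in WT). Elavl2, a neuronal RNA-binding protein, Lxn, a carboxypeptidase inhibitor, and Pde8b, a cyclic nucleotide phosphodiesterase, read 100% in all 4 libraries. Yy2 on chromosome X, a zinc finger factor, read 99.5% and 99.9% in CKO, against 100% and 97.5% in WT.

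A lower level mostly belonged to a single library. Of the 60 genes, 15 read under 75% in at least 1 library, and 10 of these did so in 1 library only: CKO replicate 1 in 6 genes, CKO replicate 2 in 1, WT replicate 1 in 2 and WT replicate 2 in 1. Tbpl1, a relative of the TATA-binding protein, read 0% and 100% in CKO, against 100% and 100% in WT. Arfgap3, a GTPase-activating protein of the Golgi, read 45.1% and 100% in CKO, against 100% and 100% in WT. Pparg, a nuclear receptor of fat cells, had 66.8% and 100% in CKO, against 100% and 84.0% in WT at the first of its windows. In the serotonin transporter gene Slc6a4 the window read 52.3% and 100% in CKO, against 47.3% and 71.4% in WT. Phf19, a Polycomb-associated protein, was the exception on the maternal side: it was at 100% in oocytes but read 0% and 0% in CKO and 22.01% and 0% in WT.

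**Figure D4:**
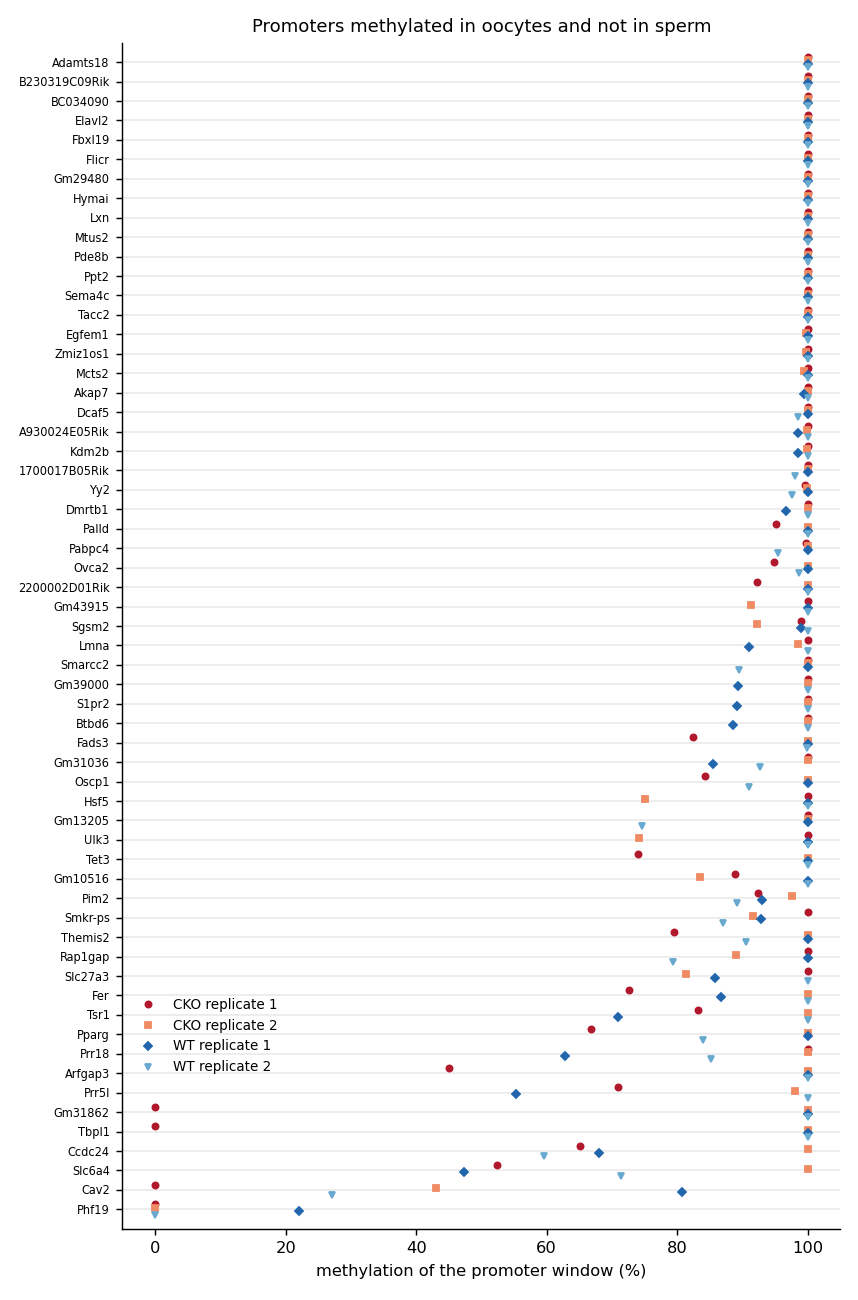
Methylation (%, horizontal axis) of the promoter window of 60 genes methylated in oocytes and not in sperm, 1 window per gene, ordered by their mean; circles and squares are CKO replicates 1 and 2, diamonds and triangles WT replicates 1 and 2. In 26 genes all 4 libraries read 95% or more, and values under 75% come from CKO replicate 1 in 11 genes, CKO replicate 2 in 3, WT replicate 1 in 6 and WT replicate 2 in 5.

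The promoter of Tet3 itself was among these windows. Its 6 positions read 73.9% and 100% in CKO, against 100% and 100% in WT, with oocytes at 96.8% and sperm at 0.425%. The window says nothing about the deletion, since the labels do not give which part of the gene was removed. The promoter of Mcts2, an imprinted retrogene that carries methylation on the maternal allele, read 100% and 99.4% in CKO, against 100% and 100% in WT. In mock it read 0% and 100% in CKO, against 89.8% and 92.5% in WT. Both promoters are shown as examples of maternal methylation that was present in both genotypes, each with the 250 bases before the start, 5′ to 3′, and with the CpGs read in all 4 libraries in capitals (6 of 17 for Tet3 and 5 of 20 for Mcts2).
Tet3: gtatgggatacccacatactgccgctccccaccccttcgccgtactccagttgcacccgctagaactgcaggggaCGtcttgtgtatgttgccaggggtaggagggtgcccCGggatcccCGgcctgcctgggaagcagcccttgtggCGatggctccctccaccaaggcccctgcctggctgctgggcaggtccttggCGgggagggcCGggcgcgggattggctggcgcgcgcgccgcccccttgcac
Mcts2: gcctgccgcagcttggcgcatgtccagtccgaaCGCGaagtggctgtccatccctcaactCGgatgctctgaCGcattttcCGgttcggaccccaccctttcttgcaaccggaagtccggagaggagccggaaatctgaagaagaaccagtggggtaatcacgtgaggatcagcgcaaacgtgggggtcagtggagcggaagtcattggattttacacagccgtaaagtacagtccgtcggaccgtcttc

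Tiles near maternally methylated imprinted genes were read in part. Of the 15 genes listed, 6 had a placed promoter (Gnas, Grb10, Igf2r, Mcts2, Plagl1 and Zrsr1), with 22 tiles of 100 bp within 2 kb of a start and 0 of these called; Impact, Inpp5f, Kcnq1ot1, Mest, Nnat, Peg3, Peg10, Peg13 and Snrpn were not placed. Plagl1, a zinc finger factor that limits growth, had a tile of 14 positions at 97.9% and 97.0% in CKO, against 100% and 99.7% in WT. This was the only tile of the list in which both CKO libraries lay below both WT libraries, where all 36926 tiles gave percent called 2.58. The tile near Zrsr1, an imprinted splicing factor gene, read 100% in all 4 libraries. At -1556 bp from a start of Gnas, the imprinted gene of the stimulatory G protein, a tile read 80.4% and 100% in CKO, against 100% and 100% in WT. The tiles at the start of Igf2r, the imprinted receptor that clears the growth factor Igf2, read at most 2.42% in each library. Oocytes read 0% there, so these tiles carried no maternal methylation to lose. Grb10, an imprinted adaptor protein, had a tile 772 bp after its start at 0% and 42.4% in CKO, against 14.2% and 20.3% in WT. The CKO libraries there lay on either side of WT, and oocytes read 7.48%. The median difference over the 22 tiles was 0, as over all tiles tested. Many of the 22 read at or near 0% in oocytes and in the 4 libraries, so this median says little about the methylated ones. None of the 4 paternally methylated imprinted genes listed (Dlk1, H19, Meg3 and Rasgrf1) was placed.

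Genes of the methylation machinery were read at their promoters too. Of 11 listed, 4 were placed (Dnmt1, Dnmt3a, Tet3 and Uhrf1), with 13 tiles and 0 calls; Dnmt3b, Dnmt3l, Dppa3, Tet1, Tet2, Trim28 and Zfp57 were not placed. Dnmt1, the maintenance methyltransferase, had a tile 316 bp after the start at 100% and 76.0% in CKO, against 100% and 100% in WT, with oocytes at 100% and sperm at 0%. The 3 tiles of Uhrf1, which brings Dnmt1 to newly replicated DNA, read 0% in all 4 libraries. Dnmt3a, a de novo methyltransferase, had 6 tiles, of which the highest value was 6.61% in CKO replicate 2 and 10.4% in WT replicate 2.

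The 13 windows methylated in sperm only averaged 2.19% and 2.36% in CKO, against 7.23% and 9.01% in WT, with a median difference of 0. Acta1 carried most of this gap: the mean difference was -5.84 points with it and -1.41 points over the other 12 windows. A few promoters were far apart between the groups. Among 4115 windows with at least 3 positions and 20 calls, both CKO libraries lay above both WT libraries in 81 (percent called 1.97) and below both in 79 (percent called 1.92), and by 25 points or more in 3 (percent called 0.0729) and 4 (percent called 0.0972). The 3 higher ones were Tcirg1, Adcyap1r1 and Pak6. Tcirg1, a subunit of the vacuolar proton pump, read 64.5% and 88.4% in CKO, against 14.3% and 18.8% in WT, and in mock 21.8% and 0% in CKO, against 37.3% and 19.9% in WT. Adcyap1r1, the receptor of a pituitary neuropeptide, read 76.8% and 95.0% in CKO, against 42.6% and 17.1% in WT, and in mock 16.1% and 18.7% in CKO, against 17.8% and 36.4% in WT. Neither gap was seen again in mock. Pak6, a protein kinase, read 64.1% and 50.3% in CKO, against 0% and 19.2% in WT, and 0% in all 4 mock libraries.

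The 4 lower ones were Mtmr6, Acta1, Emb and Snx22. Mtmr6, a lipid phosphatase, read 0% and 0% in CKO, against 56.7% and 66.7% in WT, with oocytes at 0%. In mock it read 0% and 0% in CKO, against 10.6% and 10.5% in WT. Acta1, the actin of skeletal muscle, whose promoter was at 94.3% in sperm and 21.6% in oocytes, read 0.763% and 0% in CKO, against 47.2% and 71.7% in WT. In mock its groups overlapped, at 8.71% and 21.5% in CKO, against 2.30% and 14.1% in WT. Emb, a membrane glycoprotein called embigin, read 16.3% and 24.4% in CKO, against 58.4% and 75.8% in WT, with oocytes at 64.7%. In mock Emb read 11.9% and 12.1% in CKO, against 63.6% and 34.2% in WT. At this promoter and at Mtmr6 both CKO libraries thus lay below both WT libraries in either treatment. The share of all promoter windows that do so in mock was not counted, so this cannot be weighed as a repeat. Snx22, a sorting nexin, read 6.79% and 10.6% in CKO, against 38.6% and 39.1% in WT, and in mock 63.7% and 12.7% in CKO, against 0% and 72.2% in WT. These 7 windows were chosen for their gap, so no test is given for it.
Promoters that differed most in each direction, and the sperm-methylated one among them, are shown in the same way, with the CpGs read in capitals (4 of 18 for Tcirg1, 3 of 8 for Mtmr6 and 5 of 9 for Acta1).
Tcirg1: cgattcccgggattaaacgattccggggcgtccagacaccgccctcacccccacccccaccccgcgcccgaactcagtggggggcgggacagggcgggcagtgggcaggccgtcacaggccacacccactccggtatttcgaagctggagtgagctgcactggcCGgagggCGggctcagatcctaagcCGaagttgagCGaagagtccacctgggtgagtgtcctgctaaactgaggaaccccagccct
Mtmr6: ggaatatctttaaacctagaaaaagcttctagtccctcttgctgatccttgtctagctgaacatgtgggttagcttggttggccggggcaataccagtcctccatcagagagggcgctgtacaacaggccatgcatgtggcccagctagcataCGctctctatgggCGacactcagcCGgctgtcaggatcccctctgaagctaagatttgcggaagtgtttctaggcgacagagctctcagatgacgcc
Acta1: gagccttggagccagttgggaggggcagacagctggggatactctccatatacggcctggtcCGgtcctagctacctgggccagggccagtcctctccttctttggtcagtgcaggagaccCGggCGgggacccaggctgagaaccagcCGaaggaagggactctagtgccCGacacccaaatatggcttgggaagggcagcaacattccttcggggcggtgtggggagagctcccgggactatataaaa

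**Figure D5:**
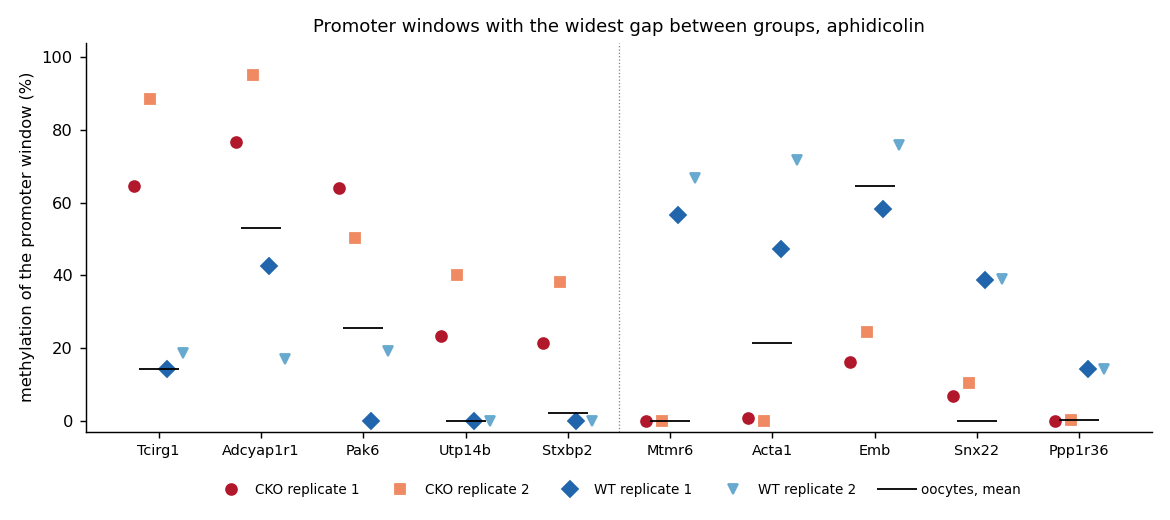
Methylation (%, vertical axis) of the 5 promoter windows with the widest gap in each direction; reds are the CKO libraries, blues the WT libraries and black dashes the oocyte mean, with windows higher in CKO left of the dotted line. The widest gaps are at Tcirg1, where CKO reads 64.5% and 88.4%, and at Mtmr6, where CKO reads 0%.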

How the data were processed

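RRBS was done on 20 mouse libraries, of which the 4 maternal aphidicolin libraries were compared. The submitters' processing notes name Bismark 0.10.1, Trim Galore and the build mm9. The authors deposited, per CpG position, a count of methylated and of unmethylated calls, not normalised, and a percent that equals their ratio. Whether duplicates were removed or strands joined is not stated in these sources. PCR copies are not independent molecules.

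Positions needed 5 reads in all 4 libraries and tiles 2 such positions. Levels are methylated over all calls, in percent. Gamete classes came from oocytes and sperm at 75% and 25%. Group means were tested by exact two-sided permutation. Tiles were tested with a quasi-binomial model, 1 level per group, whose dispersion came from groups expecting at least 5 calls of both kinds, followed depth, was shrunk with limma 3.58.1 (R 4.3.3) and kept at 1 or more, with an F test and Benjamini-Hochberg adjustment. The model was tested on simulated counts.

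Tiles were named by the gap between the nearest libraries of the 2 groups, the first 10 each way, among tiles with 3 positions and 20 calls. The plan allowed gene names only with an annotation of mm9. They were instead given by matching RefSeq promoters (GRCm38.p6) to the files' CpG positions, at least 8 of which had to fall on a CpG of 1 promoter at 1 place, in the order of genes. This was added after the data were seen, no coordinate was converted, and a wrong match is possible. The comparison, lists and tests were chosen with earlier results of these data known.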

Additional observations from a re-analysis of the deposited data

Results flagged for a closer look

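Chromosome Y, which no comparison of levels used, took 0.00163% of calls in CKO maternal aphidicolin replicate 1, more than in both WT libraries (6.77e-05% and 0.000508%) and in oocytes (at most 4.41e-05%). CKO replicate 2, at 9.30e-05%, lay between the WT libraries.

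Calls on mitochondrial DNA were methylated in 0.176% and 0.190% of cases in the CKO libraries, above both WT libraries (0.169% and 0.155%). In mock the values were 0.259% and 0.281% in CKO and 0.303% and 0.234% in WT, and there the groups overlapped.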

How the results depend on the processing

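Of 89 values under other settings, 83 kept the direction or the count of the value reported, 2 changed sign and 4 counts differed. Some of the 83 were fixed by the way they were computed, as set out below. Both sign changes came from leaving out CKO replicate 1: tiles methylated in both gametes moved to 0.154 points and oocyte-specific promoters to 1.88 points. Without that library 1 tile was called, higher in CKO, at 100 bp and 1 at 1000 bp. With all 8 maternal libraries 1 tile of 1000 bp was called, and with limma 19. The cause was not tested. Leaving out each library in turn gave differences from 0.116 to 0.677 points for all positions, -0.624 to 0.154 for tiles methylated in both gametes, -6.38 to -0.222 for oocyte-specific, 0.558 to 4.29 for sperm-specific and 0.0131 to 0.115 for unmethylated tiles, -1.70 to -0.702 for the difference of differences, 2.28 to 6.10 for the chromosome 17 stretch and -5.17 to 1.88 for oocyte-specific promoters, 0 to 1 calls for tiles and 0 to 0 for promoter windows. Weighting positions by reads gave 1.24 points. Replicate numbers were not used to pair libraries. With a replicate block, 0 tiles were called. Its mean differences, such as 0.396 points for all positions, equal the unblocked ones by arithmetic, so they are no check. Asking for a larger difference in a call could not raise a count of 0, so it is no check either. These block differences and counts are among the 83 values that kept direction or count. The stretch and the promoter windows were added after the data were seen. In the simulated counts the quasi-binomial model could seldom call a single tile.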
